A study of Mus musculus with 6 samples.

Results

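The serotonin receptors described here are 6 genes, Htr1a, Htr1b, Htr2a, Htr2c, Htr4 and Htr7, listed by name out of the 27514 genes present in all 3 pools of mouse hypothalamic nuclei. The list was set by name and not by a measured value, although earlier results of these data were known when it was chosen. They were followed through 25850 neuronal nuclei with a hashtag call, out of 34542 nuclei in the files, and through neuron classes set by the unique molecular identifiers (UMIs, each standing for 1 captured RNA molecule) of marker genes. The pools were nuclei of DIO mice (made obese by a high-fat diet, "hfd" in the labels), of OB mice (ob/ob mice on chow, which lack functional leptin) and of lean mice on chow. In every pool, hashtag oligonucleotides told apart the nuclei of rapamycin-treated mice (rapamycin inhibits the kinase mTOR) from those of vehicle-treated mice. The nuclei of every group had been sorted for NeuN, a neuronal nuclear protein. Neither the number of mice behind a hashtag nor their age was given in the sources used here. Every p-value below therefore concerns hashtag samples only, 6 of them or, in some marker classes, 4 or 5. The edgeR test used also moderates each gene's spread with that of other genes. A small p-value is therefore not a measure of that gene's own consistency over samples.

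Serotonin reaches the hypothalamus in fibres of raphe neurons in the brainstem, and it is known there for restraining feeding, in part through Htr2c on Pomc neurons and Htr1b on Agrp neurons. Its receptors fall into families by the G protein they couple to. Htr1a and Htr1b act through Gi and lower cyclic AMP, and Htr1b is often placed on axon terminals, where it reduces transmitter release. Htr2a and Htr2c act through Gq and phospholipase C, and loss of Htr2c makes mice overeat and gain weight. Htr4 and Htr7 act through Gs and raise cyclic AMP.

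The promoters of Htr1b, Htr2a and Htr2c are shown because of these receptors' profiles across neuron classes. The profiles of Htr1b and Htr2a were the most similar among the receptors compared, while the Htr2c profile resembled neither. Each window is RefSeq's promoter entry for the gene in GRCm38.p6, built as 250 bases before a start site to 50 after it, 5′ to 3′ on the gene's strand. For Htr1b and Htr2a that site is the outer end of the gene span given below, while for Htr2c it lies a little inside the span, so the Htr2c window runs into the gene. Capitals mark matches, on either strand, to a TATA box (TATAAA), a cyclic AMP response element (TGACGTCA), a GC box (GGGCGG) or a CCAAT box (CCAAT). The windows are chr9:81633783-81634082 (minus strand) for Htr1b, chr14:74640624-74640923 (plus strand) for Htr2a and chrX:146962263-146962562 (plus strand) for Htr2c.
Htr1b: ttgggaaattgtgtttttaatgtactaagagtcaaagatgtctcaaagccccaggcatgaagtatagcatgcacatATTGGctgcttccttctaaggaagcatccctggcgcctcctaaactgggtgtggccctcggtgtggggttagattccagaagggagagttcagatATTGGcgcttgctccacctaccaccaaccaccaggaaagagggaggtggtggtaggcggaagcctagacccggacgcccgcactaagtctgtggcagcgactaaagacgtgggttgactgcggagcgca
Htr2a: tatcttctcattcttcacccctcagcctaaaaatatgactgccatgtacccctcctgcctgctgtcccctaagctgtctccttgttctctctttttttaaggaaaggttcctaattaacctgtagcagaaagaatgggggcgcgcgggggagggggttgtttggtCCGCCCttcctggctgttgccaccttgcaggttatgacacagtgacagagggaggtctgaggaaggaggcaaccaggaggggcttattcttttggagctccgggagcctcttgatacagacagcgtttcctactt
Htr2c: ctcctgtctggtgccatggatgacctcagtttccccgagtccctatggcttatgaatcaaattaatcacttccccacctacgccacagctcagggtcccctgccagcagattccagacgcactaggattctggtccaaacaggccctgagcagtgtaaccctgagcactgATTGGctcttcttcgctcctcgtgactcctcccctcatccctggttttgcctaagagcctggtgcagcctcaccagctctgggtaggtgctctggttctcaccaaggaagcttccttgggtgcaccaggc
Htr1b has 2 CCAAT boxes, Htr2c has 1 CCAAT box and Htr2a has 1 GC box. None of the 3 windows holds a TATA box or a cyclic AMP response element in these letters. Of 32851 mouse promoters of the same length, 37.4% hold a CCAAT box, 35.7% a GC box, 13.6% a TATA box and 1.79% a cyclic AMP response element. The CCAAT and GC box matches found here are therefore common ones. The GC content of the windows is 53.3% in Htr1b, 52.0% in Htr2a and 56.3% in Htr2c, against a median of 52.7% over all promoters. The Htr7 window (chr19:36057311-36057610, minus strand) has 81.0% GC and 46 CpG dinucleotides, against a median of 7, and holds none of the 4 motifs. It lies wholly inside the Htr7 gene span, downstream of the span's outer end, and which start these neurons use was not tested. The Htr1a window (chr13:105443443-105443742, plus strand) has 1 GC box and 7 CpG dinucleotides.

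The 6 genes lie on 6 chromosomes of GRCm38.p6 in the RefSeq gene table. Htr1a (ENSMUSG00000021721) spans chr13:105443693-105448133 and Htr1b (ENSMUSG00000049511) spans chr9:81628291-81633832. Htr2a (ENSMUSG00000034997) spans chr14:74640874-74706859 and Htr2c (ENSMUSG00000041380) spans chrX:146962464-147197277. Htr4 (ENSMUSG00000026322) spans chr18:62323546-62503027 and Htr7 (ENSMUSG00000024798) spans chr19:35958415-36058133. Htr1b overlaps the long noncoding RNA gene D430036J16Rik, Htr4 overlaps the noncoding Gm36316 and the pseudogene Gm18653, and Htr2c contains Snora35 and 7 microRNA genes. How reads in such overlaps were assigned, and whether introns were counted, is not given in the sources used here.

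The 3 pools held 11405 (DIO), 12284 (OB) and 10853 (chow) barcodes with 71127440, 39238102 and 68992028 UMIs. Neurons had a median of 5793.5 UMIs in DIO, 3318 in OB and 5984 in chow, so receptor values are least precise in the OB pool. The OB pool also left 2478 neurons with no hashtag call, against 182 in DIO and 93 in chow. In OB, the hashtag caller assigned 5613 barcodes to rapamycin and 2420 to vehicle, whereas a call by the ratio of the tags assigned 5367 and 5513, so the OB vehicle values rest on far fewer nuclei than the other rule would give. Neurons with a call numbered 5774 rapamycin and 4276 vehicle nuclei in DIO, 4553 and 1619 in OB, and 4678 and 4950 in chow. Pairs of pools shared 31 to 38 barcode sequences. Within neurons, 5563 nuclei were classed as GABAergic and 2584 as glutamatergic, and 13 marker classes of 91 to 1297 nuclei were compared with all other neurons. A nucleus could belong to several classes, and 59.6% of Avp or Oxt nuclei were also Sim1 nuclei. Class nuclei mostly had more UMIs than the average neuron, and Hdc nuclei had medians of 5436.5 to 10196 UMIs.

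Markers not used to choose the nuclei bore out most class names. Hcrt nuclei carried 747 CPM of Rfx4 (UMIs scaled to the class total) in chow against 12.3 CPM in other neurons, Pmch nuclei 259 CPM of Tacr3 against 8.71 CPM, and Hdc nuclei 301 CPM of Wif1 against 0.948 CPM. The Nr5a1 or Fezf1 nuclei, chosen with genes of the ventromedial hypothalamus, had 186 CPM of Gda against 58.0 CPM but only 12.4 CPM of Adcyap1 against 7.73 CPM. The Sst nuclei were not raised for Npy1r, at 1.87 CPM against 7.80 CPM in chow. Their Elfn1 was not raised in chow either (7.49 against 8.99 CPM), though it was above other neurons in DIO and OB on 5 and 3 UMIs. Tac2 nuclei of the OB pool had no UMI of Pdyn and 1 of Tacr3, and Lepr nuclei there had none of Socs3. In Agrp and Npy nuclei, Corin was at 119 CPM in DIO, 46.0 CPM in OB and 117 CPM in chow, against 4.38 to 6.14 CPM in other neurons. The classes are therefore called by the genes that chose them.

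Over all neurons, receptor levels differed little between the 6 hashtag samples. Htr2c, on 68545 UMIs, had a lowest, median and highest level of 430, 460 and 487 CPM. Htr4 had 73.7, 78.9 and 80.3 CPM, and Htr7 had 64.4, 68.8 and 77.2 CPM. The widest spread among the well-covered genes was in Htr1b, with 15.8, 19.0 and 24.2 CPM, and Htr2a had 18.0, 20.6 and 22.6 CPM. Htr1a was close to absent: 167 UMIs in all, or 0.926, 1.14 and 1.39 CPM. These UMIs are not scaled by gene length, so the levels of different genes are not ranked here.

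Genes that define serotonin neurons had few UMIs. Tph2, the enzyme that starts serotonin synthesis in neurons, had 31 UMIs over all neurons, the serotonin transporter Slc6a4 had 40 and the raphe transcription factor Fev had 8.

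GABAergic and glutamatergic neurons differed in 4 of the 5 receptors that passed the filter on low counts, 2 higher and 2 lower in GABAergic nuclei, against 17.0% of the 13432 genes tested (edgeR's quasi-likelihood test, hashtag sample as block, Benjamini-Hochberg adjusted p at most 0.05). Of all genes called, 1033 were higher and 1255 lower; scaled by library totals in place of TMM (trimmed mean of M-values), 1670 were higher and 1045 lower, while the same 4 receptors were called. The adenylyl cyclase activators Htr4 and Htr7 were higher in GABAergic nuclei, and Htr1b and Htr2a were lower. Htr2c did not pass. Htr1a had 44 UMIs in GABAergic and 15 in glutamatergic nuclei and was not tested.

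Htr1b, the Gi-coupled receptor, had a lowest, median and highest level of 11.5, 15.6 and 23.3 CPM in GABAergic nuclei and 13.2, 21.5 and 30.0 CPM in glutamatergic nuclei. The ranges overlapped, and GABAergic nuclei were lower in 5 of 6 samples. Their log2 fold change was -0.38 ± 0.11 (SE; edgeR's quasi-likelihood test, adjusted p = 0.0180). This call was lost in 6 of 13 alternative settings, namely DESeq2, a stricter marker minimum, no block, and the sets without the rapamycin sample of chow, the rapamycin sample of DIO or the vehicle sample of DIO, with adjusted p-values up to 0.336.

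Htr2a showed the largest transmitter difference of the 5. In the rapamycin and vehicle samples, GABAergic nuclei had 15.4 and 15.0 CPM in DIO, 12.1 and 21.0 CPM in OB, and 15.6 and 13.7 CPM in chow. Glutamatergic nuclei had 31.4 and 27.7 CPM in DIO, 21.6 and 47.0 CPM in OB, and 26.8 and 30.5 CPM in chow. The groups did not overlap, and each sample had more Htr2a in its glutamatergic nuclei. The log2 fold change was -1.01 ± 0.09 (edgeR's quasi-likelihood test, adjusted p = 3.92e-10) and held in all 13 alternatives. The other Gq-coupled receptor, Htr2c, averaged 469 ± 40.4 CPM in GABAergic and 439 ± 43.9 CPM in glutamatergic nuclei (SD, n = 6), with a log2 fold change of 0.07 ± 0.05 (edgeR's quasi-likelihood test, adjusted p = 0.417).

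The Gs-coupled pair leaned toward GABAergic nuclei. Htr4 averaged 95.3 ± 2.21 CPM in GABAergic and 73.9 ± 15.3 CPM in glutamatergic nuclei (SD, n = 6), and was higher in 5 of 6 samples. Its log2 fold change was 0.32 ± 0.06 (edgeR's quasi-likelihood test, adjusted p = 2.01e-04). Htr7 averaged 81.5 ± 13.4 CPM in GABAergic and 67.4 ± 5.65 CPM in glutamatergic nuclei, was higher in 5 of 6 samples, and had a log2 fold change of 0.28 ± 0.05 (edgeR's quasi-likelihood test, adjusted p = 1.94e-04). Both ranges overlapped. Both calls were lost without the hashtag-sample block, at adjusted p-values of 0.0650 for Htr4 and 0.235 for Htr7.

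**Figure D1:**
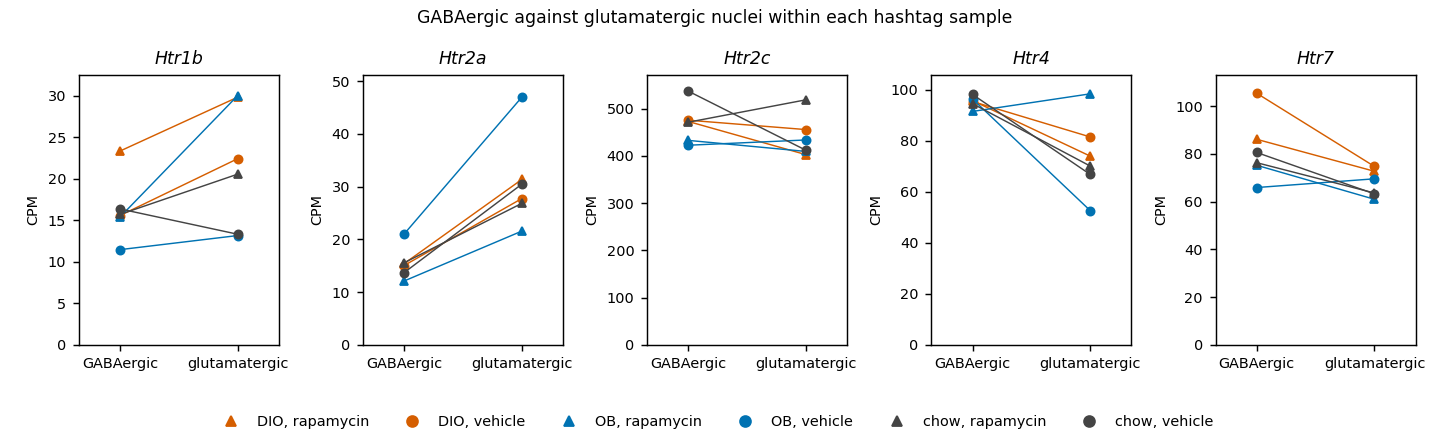
Level of Htr1b, Htr2a, Htr2c, Htr4 and Htr7 in CPM (vertical axes) in GABAergic (left) and glutamatergic (right) nuclei, 1 point per hashtag sample (triangles rapamycin, circles vehicle, coloured by pool) with a line joining the classes of a sample. Every line of Htr2a climbs to the right, from 12.1 to 21.0 CPM in GABAergic nuclei against 21.6 to 47.0 CPM in glutamatergic nuclei.

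Across the 13 marker classes, each set against all other neurons, 42 pairs of a receptor and a class passed the test. Htr2c was higher in 3 classes and lower in 8, Htr4 was higher in 2 and lower in 6, Htr1b and Htr2a were each higher in 1 and lower in 6, and Htr7 was higher in none and lower in 9. Htr1a passed the filter on low counts in the Pomc comparison alone, where it had no UMI in the class (edgeR's quasi-likelihood test, adjusted p = 0.639). Of the 42 calls, 41 were kept without the deepest nuclei, and no call changed its direction in any alternative that was run.

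**Figure D2:**
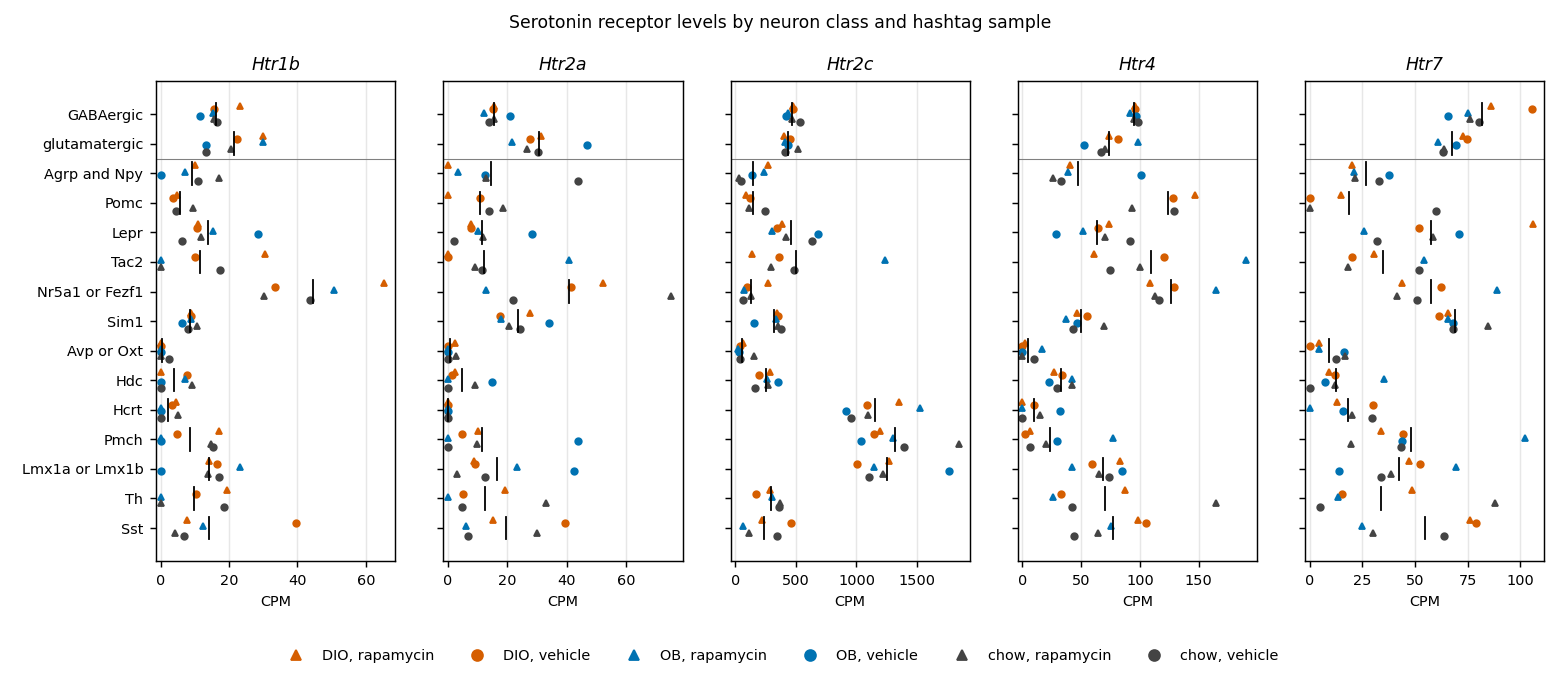
Level of each receptor in CPM by neuron class, 1 point per hashtag sample (triangles rapamycin, circles vehicle, coloured by pool) and a vertical bar at the mean over samples. Htr2c stands highest in Pmch, Lmx1a or Lmx1b and Hcrt nuclei (912 to 1844 CPM) and lowest in Avp or Oxt nuclei (21.1 to 156 CPM), where Htr1b and Htr2a are near 0.

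Htr1b was highest in Nr5a1 or Fezf1 nuclei. These nuclei had 30.1, 33.3, 43.6, 50.7 and 65.4 CPM in the 5 samples with at least 10 such nuclei, against 17.7 to 23.9 CPM in other neurons. The groups did not overlap. The log2 fold change was 1.10 ± 0.29 (edgeR's quasi-likelihood test, adjusted p = 0.00345), resting on 41 UMIs, and the call was lost under a stricter marker minimum and without the rapamycin sample of DIO (adjusted p up to 0.379). Among the levels of all 15 classes, the step from Nr5a1 or Fezf1 nuclei (44.6 CPM) to the next class, glutamatergic nuclei (21.5 CPM), was the only gap in Htr1b without overlap of the samples.

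Htr1b was low in several peptide-making classes. Avp or Oxt nuclei, which make vasopressin or oxytocin, had 1 UMI in 6 samples, a log2 ratio of -5.29 with an exact 95% counting interval of -10.59 to -2.81. Orexin-producing Hcrt nuclei had 3 UMIs (-2.68, -4.96 to -1.13). Pomc nuclei, the appetite-restraining melanocortin neurons, had 4 UMIs in 4 samples (-2.02, -3.89 to -0.66). All 3 were called lower (edgeR's quasi-likelihood test, adjusted p = 8.94e-10 for Avp or Oxt, 2.87e-04 for Hcrt and 0.00694 for Pomc), the Pomc call being lost by DESeq2 and without either DIO sample. Sim1 nuclei, whose marker is a transcription factor of the paraventricular nucleus, had 6.17, 8.90 and 10.6 CPM (lowest, median, highest) against 16.3 to 25.2 CPM in other neurons, with no overlap (log2 fold change -1.18 ± 0.14, edgeR's quasi-likelihood test, adjusted p = 2.73e-08). Histaminergic Hdc nuclei (-2.15, adjusted p = 1.55e-06) and Lepr nuclei, which carry the leptin receptor (-0.89, adjusted p = 0.0203), were also called lower by edgeR's quasi-likelihood test, the Lepr call being lost in 4 of 12 alternatives. Agrp and Npy nuclei, the hunger-promoting neurons, had 0 to 17.1 CPM of Htr1b against 16.0 to 24.2 CPM in other neurons, and their log2 fold change of -1.06 ± 0.48 did not pass (edgeR's quasi-likelihood test, adjusted p = 0.227).

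Htr2a followed Htr1b through most of these classes. In Nr5a1 or Fezf1 nuclei it had 12.7, 21.8, 41.6, 52.3 and 75.4 CPM against 18.1 to 20.7 CPM in other neurons. It was higher in 4 of 5 samples, the OB sample being the exception. The log2 fold change of 1.23 ± 0.28 (edgeR's quasi-likelihood test, adjusted p = 2.82e-04) fell to 0.44 under the least favourable alternative, and the call was lost under a stricter marker minimum and without the rapamycin sample of chow. Hcrt nuclei had 0 Htr2a UMIs in all 6 samples, against 3005 in other neurons, which makes Htr2a at least 6.55-fold lower there (floor of 3 UMIs over the group). Avp or Oxt nuclei had 2 UMIs, a log2 ratio of -4.32 (exact 95% counting interval -7.37 to -2.47). Hdc nuclei had 7 UMIs, and Pmch, Lepr and Lmx1a or Lmx1b nuclei had log2 fold changes of -1.38, -1.33 and -1.01. All 6 classes were called lower by edgeR's quasi-likelihood test, with adjusted p-values of 1.70e-07 (Hcrt), 2.23e-09 (Avp or Oxt), 6.80e-08 (Hdc), 0.0112 (Pmch), 0.00171 (Lepr) and 6.01e-04 (Lmx1a or Lmx1b). DESeq2 did not call the Pmch or the Lmx1a or Lmx1b difference. Sim1 nuclei parted the pair, with Htr2a at 17.4 to 33.9 CPM against 18.0 to 22.0 CPM in other neurons. The Htr2a log2 fold change there was 0.17 ± 0.11 (edgeR's quasi-likelihood test, adjusted p = 0.372). In Pomc, Pmch and Lmx1a or Lmx1b nuclei both receptors were lower, but not both were called. Htr2a did not pass in Pomc nuclei (-1.18, edgeR's quasi-likelihood test, adjusted p = 0.148). Htr1b did not pass in Pmch (-0.76, adjusted p = 0.188) or Lmx1a or Lmx1b nuclei (-0.27, adjusted p = 0.484) by the same test.

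Htr2c reached its highest levels in 3 classes of the posterior and lateral hypothalamus. Most of its 68545 UMIs lay in other nuclei, with 1793 in Pmch, 5001 in Lmx1a or Lmx1b and 1111 in Hcrt nuclei. Pmch nuclei, which make melanin-concentrating hormone, had a lowest, median and highest level of 1039, 1249 and 1844 CPM, against 428 to 477 CPM in other neurons. Lmx1a or Lmx1b nuclei, whose markers are transcription factors of the posterior hypothalamus, had 1005, 1181 and 1765 CPM against 418 to 461 CPM, and Hcrt nuclei had 912, 1087 and 1526 CPM against 425 to 483 CPM. Each class lay wholly above the other neurons in all 6 samples, and the 3 classes overlapped one another. The log2 fold changes were 1.55 ± 0.11, 1.49 ± 0.06 and 1.25 ± 0.11 (edgeR's quasi-likelihood test, adjusted p = 1.09e-40, 1.13e-35 and 2.15e-29), and all 3 held in every one of the 12 alternatives.

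The lowest Htr2c was in Avp or Oxt nuclei, at 21.1, 39.0 and 156 CPM against 436 to 491 CPM in other neurons. Its log2 fold change was -2.94 ± 0.16 (edgeR's quasi-likelihood test, adjusted p = 5.65e-26). The neurons of the arcuate feeding circuit were also low. Pomc nuclei had 93.1, 112, 124 and 249 CPM against 458 to 488 CPM in other neurons, and Agrp and Npy nuclei had 34.2, 43.8, 138, 235 and 270 CPM against 433 to 490 CPM. Neither class overlapped the other neurons, and their log2 fold changes were -1.83 ± 0.15 and -1.98 ± 0.17 (edgeR's quasi-likelihood test, adjusted p = 4.22e-33 and 5.23e-29). Within Agrp and Npy nuclei the chow samples (34.2 and 43.8 CPM) lay below the DIO and OB samples (138 to 270 CPM); each chow sample rests on 36 or 27 nuclei, and this difference between pools was not tested.

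Htr2c in Nr5a1 or Fezf1 nuclei, at 65.4 to 275 CPM, was lower by a log2 fold change of -1.76 ± 0.13 (edgeR's quasi-likelihood test, adjusted p = 1.34e-36), in the class where Htr1b, Htr2a and Htr4 were higher. Sst, Hdc, Th and Sim1 nuclei were lower by smaller amounts, with log2 fold changes of -1.17, -0.93, -0.73 and -0.47 (edgeR's quasi-likelihood test, adjusted p = 2.18e-15, 1.09e-18, 2.45e-06 and 1.84e-06); the Sst difference was not called by DESeq2. Lepr nuclei had 308 to 680 CPM and did not differ detectably from other neurons (log2 fold change -0.14 ± 0.12, edgeR's quasi-likelihood test, adjusted p = 0.622). Tac2 nuclei ranged from 140 CPM to 1237 CPM, the highest being the OB rapamycin sample (log2 fold change -0.25 ± 0.15, edgeR's quasi-likelihood test, adjusted p = 0.602). In the order of class levels, the step from glutamatergic nuclei (439 CPM) to Sim1 nuclei (319 CPM) was the only one between neighbours whose samples did not overlap.

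Htr4, a Gs-coupled receptor, was higher in Nr5a1 or Fezf1 and in Pomc nuclei. Nr5a1 or Fezf1 nuclei had 109, 113, 116, 129 and 165 CPM against 77.5 to 79.9 CPM in other neurons, and Pomc nuclei had 93.1, 128, 129 and 147 CPM against 77.4 to 79.8 CPM. Neither class overlapped the other neurons in any sample used. The log2 fold changes were 0.61 ± 0.16 and 0.56 ± 0.17 (edgeR's quasi-likelihood test, adjusted p = 0.00417 and 0.0159). The Nr5a1 or Fezf1 call was lost under a stricter marker minimum, without the deepest nuclei and without the vehicle sample of DIO (adjusted p up to 0.754), and the Pomc call in 4 of 10 alternatives (adjusted p up to 0.173).

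Htr4 was nearly missing from the classes that make hypothalamic peptides in the lateral and magnocellular groups. Avp or Oxt nuclei had 9 UMIs, Hcrt nuclei 8 and Pmch nuclei 14, against 11656, 11657 and 11651 in other neurons. The log2 fold changes were -4.10 ± 0.30, -3.29 ± 0.36 and -2.83 ± 0.30 (edgeR's quasi-likelihood test, adjusted p = 7.04e-19, 1.59e-18 and 6.14e-20). Oligodendrocytes, which should lack the receptor, had 4.02 to 17.0 CPM of Htr4, so the levels of 4.87 CPM in Avp or Oxt and 9.52 CPM in Hcrt nuclei lie within that background. Hdc, Agrp and Npy, and Sim1 nuclei were lower by -1.26, -1.11 and -0.62 on the log2 scale (edgeR's quasi-likelihood test, adjusted p = 2.36e-11, 1.27e-04 and 1.86e-07). Hcrt and Pmch nuclei thus combined raised Htr2c with low Htr4, whereas Lmx1a or Lmx1b nuclei, also raised for Htr2c, had Htr4 at 68.1 ± 16.0 CPM (SD, n = 6) and no call.

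Htr7, the other Gs-coupled receptor, was raised in no marker class. Among the 15 classes, its mean levels were highest in GABAergic (81.5 CPM), Sim1 (68.9 CPM) and glutamatergic nuclei (67.4 CPM). Avp or Oxt nuclei had 0, 8.57 and 16.8 CPM (lowest, median, highest) against 65.8 to 78.1 CPM in other neurons, and Hdc nuclei had 0, 10.6 and 35.3 CPM against 65.6 to 78.7 CPM. Neither overlapped the other neurons, and the log2 fold changes were -3.03 ± 0.26 and -2.72 ± 0.24 (edgeR's quasi-likelihood test, adjusted p = 5.48e-16 and 5.32e-23). Pomc nuclei, where Htr4 was higher, had Htr7 at 0 CPM in 2 of 4 samples and 14.7 and 60.0 CPM in the others, a log2 fold change of -2.02 ± 0.30 (edgeR's quasi-likelihood test, adjusted p = 7.08e-10), which DESeq2 did not call. Agrp and Npy, Hcrt, Th, Tac2, Pmch and Lmx1a or Lmx1b nuclei were also lower, with log2 fold changes of -1.60, -1.85, -1.20, -1.14, -0.78 and -0.63 (edgeR's quasi-likelihood test, adjusted p at most 0.00998). The Th call was lost by DESeq2 and without the vehicle sample of DIO, and the Tac2 call by those settings and without either rapamycin sample of DIO or chow.

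Read by class, the share of receptors called was above the share of all genes called in each of the 13 comparisons, though 1 of 5 is the smallest share a call can give. All 5 tested receptors were called in Avp or Oxt nuclei (all lower, background 22.9% of genes, 13.1% counting lower ones alone), in Hdc nuclei (all lower, background 31.5%, 17.3% lower) and in Hcrt nuclei (1 higher, 4 lower, background 16.5%). In Nr5a1 or Fezf1 nuclei 3 receptors were higher and 1 lower (background 7.05%), and in Pomc nuclei 1 was higher and 3 lower of 6 tested (background 8.75%). Pmch nuclei had 1 higher and 3 lower (background 16.6%), and Lmx1a or Lmx1b nuclei 1 higher and 2 lower (background 9.8%). Only lower receptors were called in Agrp and Npy nuclei (3, background 7.31%, 4.85% lower), Sim1 nuclei (3, background 14.9%, 8.22% lower) and Lepr nuclei (2, background 7.25%, 3.75% lower). The same held in Th nuclei (2, background 3.24%, 1.69% lower), Tac2 nuclei (1, background 2.08%, 1.41% lower) and Sst nuclei (1, background 2.41%, 1.47% lower). The median log2 fold change of the 5 receptors tested was -4.10 in Avp or Oxt nuclei, against -0.03 over all genes tested there, and 0.61 in Nr5a1 or Fezf1 nuclei, against -0.13.

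**Figure D3:**
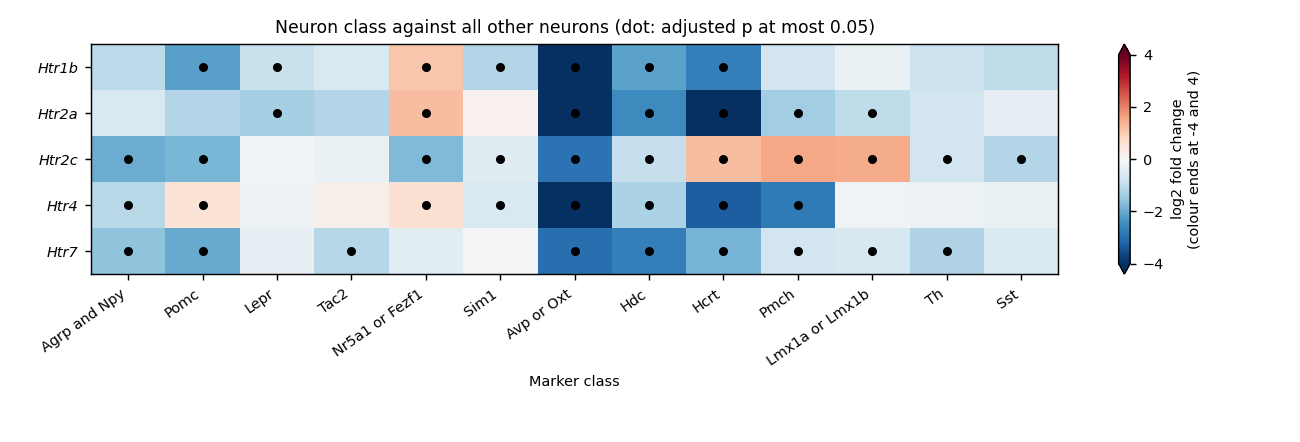
Log2 fold change of each receptor in each marker class against other neurons (edgeR), as colour (red higher, blue lower, ending at -4 and 4), with a black dot where the adjusted p was at most 0.05; Htr1a, below the filter in 12 of the 13 classes, is not drawn. The Avp or Oxt and Hdc classes are lower for all 5 receptors tested, while the Nr5a1 or Fezf1 class is higher for Htr1b, Htr2a and Htr4 and lower for Htr2c.

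Htr1b and Htr2a, from different families, had the closest profiles. Over the 15 classes (13 marker classes and the GABAergic and glutamatergic nuclei), their mean levels on the log2(CPM + 1) scale had a Pearson correlation of 0.93, and each was the other's nearest among 12599 genes. The points share libraries, and classes overlap in nuclei, so the value is a description. Htr1b and Htr2a had 1 and 2 UMIs in Avp or Oxt nuclei, 3 and 0 in Hcrt nuclei and 9 and 7 in Hdc nuclei. How far these low classes carry the correlation was not tested. Next to Htr1b came Mkl2 and Fxyd5 (both 0.90), and next to Htr2a came Dok7 and Fam126b (both 0.92). Htr4 (0.79 with Htr1b, 0.81 with Htr2a) and Htr7 (0.78 and 0.75) were also close to both, while Htr2c was close to neither (0.10 and -0.02). The genes nearest to Htr2c were Med28 (0.82), Cdh10 (0.81) and Fras1 (0.81). Nearest to Htr4 were Prr14l (0.92), Zfp385b (0.89) and Camta1 (0.89), and among the nearest to Htr7 were Trhde (0.92) and Noxred1 (0.89).

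**Figure D4:**
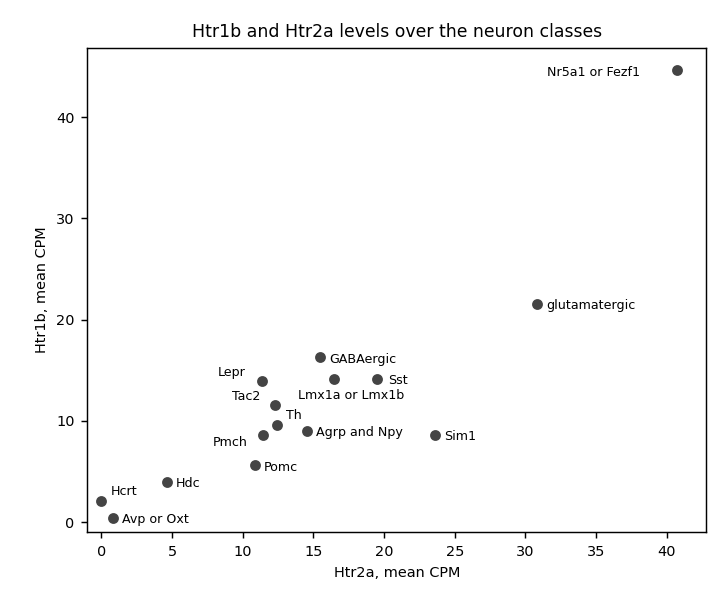
Mean level of Htr1b (vertical axis) against mean level of Htr2a (horizontal axis), both in CPM, with 1 point for each of the 15 neuron classes. Nr5a1 or Fezf1 nuclei are at the top right (44.6 CPM of Htr1b and 40.8 CPM of Htr2a), and Avp or Oxt and Hcrt nuclei are at the bottom left.

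Htr1b and Htr2a were also compared within single nuclei. Thinned to 1000 UMIs per nucleus, so that depth was equal, nuclei with an Htr2a UMI had Htr1b in 0%, 0.676% and 3.45% of nuclei (lowest, median and highest sample), against 1.27%, 1.73% and 2.55% of nuclei without Htr2a. The share was higher in nuclei with Htr2a in 1 of 6 samples, on 500 such nuclei in all, too few for a firm comparison. Htr2c was found in 17.6%, 23.5% and 26.4% of nuclei with an Htr2a UMI, against 23.5%, 25.5% and 26.7% of those without, lower in 6 of 6 samples. Htr4 was found in 4.71%, 8.33% and 10.0% of nuclei with Htr7, against 5.02%, 7.06% and 7.38% without, higher in 5 of 6 samples. These shares have no test beyond the count of samples. Of all thinned neurons, 61.4% to 65.4% had a UMI of none of the 6 receptors and 3.28% to 5.48% had UMIs of several.

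The share of nuclei with an Htr2c UMI also differed between classes. At full depth, 38.0%, 49.6% and 52.0% of neurons had an Htr2c UMI (lowest, median and highest sample), and 23.5%, 25.4% and 26.7% after thinning. Thinned shares were 57.8%, 61.1% and 76.2% in Pmch nuclei, 47.7%, 54.7% and 64.3% in Lmx1a or Lmx1b nuclei and 41.7%, 61.8% and 92.9% in Hcrt nuclei. Avp or Oxt nuclei had a thinned median of 2.97%, against 0.971% to 4.02% in oligodendrocytes and 1.01% to 2.43% in astrocytes, so the median share in Avp or Oxt nuclei lies within the oligodendrocyte range and above the astrocyte range. Those glial nuclei had medians of 1395 to 2124 and 1365 to 2118.5 UMIs before thinning. Within a sample, the tenth of neurons with most Htr2c held 53.4% to 61.3% of its UMIs, and a single nucleus reached 114 UMIs. For the other receptors the thinned median share over all neurons was 0.0975% for Htr1a, 1.71% for Htr1b, 1.87% for Htr2a, 7.11% for Htr4 and 6.28% for Htr7. Like the levels, these shares are not scaled by gene length and are not ranked.

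Of the 8 other serotonin receptor genes measured, Htr1f, a Gi-coupled receptor, was the best covered, with 9179 UMIs and 41.3 to 69.7 CPM over all neurons. It was higher than in other neurons in Tac2, Hcrt, Pmch, Lmx1a or Lmx1b, Agrp and Npy, and Sim1 nuclei, with log2 fold changes of 1.62, 1.24, 0.92, 0.76, 0.76 and 0.34. It was lower in Hdc, Pomc, Nr5a1 or Fezf1, Avp or Oxt, and Sst nuclei, with -3.16, -2.70, -1.85, -1.40 and -0.98 (edgeR's quasi-likelihood test, adjusted p at most 0.05 for all 11). Htr1f and Htr2c were thus both higher in Hcrt, Pmch and Lmx1a or Lmx1b nuclei. Against Htr1b, the other Gi-coupled receptor with enough UMIs, it went the opposite way in Hcrt, Sim1 and Nr5a1 or Fezf1 nuclei and the same way, lower, in Hdc, Pomc and Avp or Oxt nuclei. Between GABAergic and glutamatergic nuclei, Htr1f, Htr2b and Htr5a had log2 fold changes of -0.10 ± 0.08, 0.03 ± 0.14 and 0.47 ± 0.27, none of which passed (edgeR's quasi-likelihood test, adjusted p = 0.519, 0.939 and 0.278).

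Of 8 genes for serotonin synthesis, transport and breakdown, the 4 that passed the filter are shared with other monoamines, and all 4 were higher in GABAergic than in glutamatergic nuclei, where 17.0% of all genes were called. The vesicular monoamine transporter Slc18a2 had a log2 fold change of 1.56, the monoamine oxidases Maob and Maoa 1.18 and 0.38, and the decarboxylase Ddc 0.86. In Hdc nuclei, where all 5 receptors were lower, Maob, Slc18a2 and Maoa were higher by 5.46, 4.69 and 2.48 on the log2 scale, and Ddc was lower by -1.25, beside 31.5% of all genes called. Of 234 Hdc nuclei, 128 were also GABAergic and 1 was glutamatergic. How much they add to the GABAergic differences of Maob, Slc18a2 and Maoa was not tested. In Th nuclei, which can make dopamine, Slc18a2, Ddc and Maoa were higher by 2.92, 2.84 and 1.09, beside 3.24% of all genes called. Of 22 G-protein and effector genes downstream of the receptors, 20 were tested between GABAergic and glutamatergic nuclei, and 5 were higher and 3 lower, beside the same 17.0% of all genes. The Gq-side genes moved in both directions, with Gna14 (1.11) and Plcb1 (0.64) higher and Itpr1 (-0.53) and Plcb4 (-0.45) lower. The cyclase Adcy8 was lower (-0.81). All of these passed edgeR's quasi-likelihood test at an adjusted p of at most 0.05.

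Rapamycin against vehicle changed no receptor detectably over all neurons: 0 of 6 were called by edgeR's quasi-likelihood test with pool as a block, against 0.455% of 17344 genes, 1 had an unadjusted p under 0.05, and DESeq2 called 0. That gene was Htr1b. Its levels in rapamycin and vehicle nuclei were 24.2 and 19.3 CPM in DIO, 19.6 and 15.8 CPM in OB, and 18.6 and 17.8 CPM in chow. The log2 fold change was 0.22 ± 0.08 (edgeR's quasi-likelihood test, adjusted p = 0.522). Htr1b was higher in rapamycin nuclei in every pool, and the exact 95% counting interval lay above 0 in DIO (0.32, 0.17 to 0.48) but not in OB (0.30, -0.02 to 0.64) or chow (0.06, -0.11 to 0.23). In glutamatergic nuclei the rapamycin and vehicle samples had 29.8 and 22.4 CPM in DIO, 30.0 and 13.2 CPM in OB, and 20.5 and 13.3 CPM in chow, a log2 fold change of 0.56 ± 0.17 that did not pass either (edgeR's quasi-likelihood test, adjusted p = 0.531).

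The other receptors had log2 fold changes near 0 over all neurons, with -0.15 ± 0.29 for Htr1a, -0.02 ± 0.08 for Htr2a, -0.02 ± 0.06 for Htr2c, 0.06 ± 0.06 for Htr4 and -0.02 ± 0.06 for Htr7 (edgeR's quasi-likelihood test, adjusted p = 0.9998 for each). No receptor was called in GABAergic nuclei (0 of 5, background 0.0138%, 1 at an unadjusted p under 0.05), glutamatergic nuclei (0 of 5, background 0.0372%, 1), Sim1 nuclei (0 of 5, background 0.17%, 0), Lepr nuclei (0 of 3, background 0.0133%, 2), Hdc nuclei (0 of 2, background 0.0178%, 1), Hcrt nuclei (0 of 1, background 0.421%, 1), Pmch nuclei (0 of 2, background 0.0%, 0) or Lmx1a or Lmx1b nuclei (0 of 5, background 0.0%, 0). DESeq2 also called none of them. In Lepr nuclei, Htr7 had a log2 fold change of 0.81 ± 0.28 and Htr2c one of -0.43 ± 0.18 (edgeR's quasi-likelihood test, adjusted p = 0.9998 for both). Hcrt nuclei had more Htr2c with rapamycin in each pool, at 1350 and 1084 CPM in DIO, 1526 and 912 CPM in OB, and 1091 and 959 CPM in chow for rapamycin and vehicle, but the log2 fold change of 0.39 ± 0.17 did not pass (edgeR's quasi-likelihood test, adjusted p = 0.706).

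Among the classes tested for rapamycin, the exception was Htr2c in Avp or Oxt nuclei, called higher with rapamycin. It was the only receptor tested there (background 0.152% of 5902 genes, 0.102% counting higher ones alone). Rapamycin and vehicle nuclei had 62.3 and 37.3 CPM in DIO (28 and 12 UMIs), 21.1 and 27.4 CPM in OB (5 and 5 UMIs), and 156 and 40.6 CPM in chow (56 and 16 UMIs). The chow rapamycin sample is high and the other 5 lie between 21.1 and 62.3 CPM. The log2 fold change was 1.27 ± 0.31 (edgeR's quasi-likelihood test, adjusted p = 0.0459), and the call was lost in 8 of 9 alternatives, with a log2 fold change of 0.45 and an adjusted p of 0.983 without the chow pool. Oligodendrocytes, which should lack the receptor, had 12.7 CPM of Htr2c in DIO, 103 CPM in OB and 32.2 CPM in chow, and astrocytes had 63.4, 22.4 and 37.6 CPM. The DIO samples thus lay above the oligodendrocytes and below the astrocytes of their pool, both OB samples lay below the oligodendrocytes, and both chow samples lay above both.

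**Figure D5:**
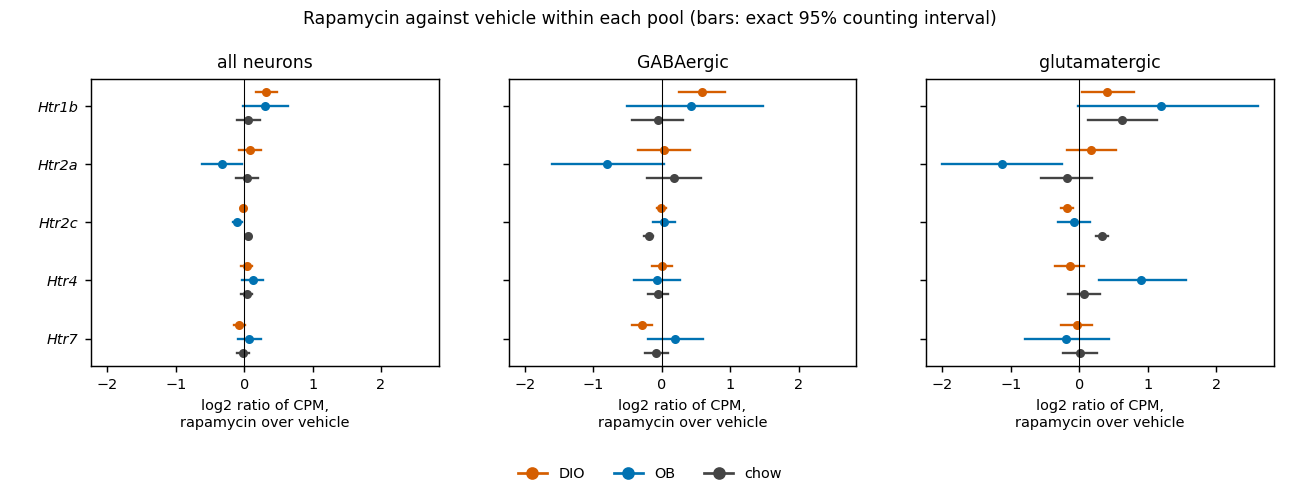
Log2 ratio of rapamycin to vehicle (horizontal axes) for Htr1b, Htr2a, Htr2c, Htr4 and Htr7 in all neurons, GABAergic nuclei and glutamatergic nuclei, 1 point per pool, with exact 95% intervals for counting error. Htr1b in glutamatergic nuclei is the one gene above 0 in all 3 pools by at least 0.41, and its OB interval reaches -0.02.

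DIO and OB nuclei were compared with chow nuclei by values alone, since each group is 1 pool, and diet or genotype cannot be told apart from capture, depth or, for OB, the Cell Ranger version. Of 16 receptor and class values with at least 50 UMIs, 2 differed by more than 0.5 on the log2 scale between vehicle nuclei of DIO and chow. Htr1b in glutamatergic nuclei was at 22.4 CPM in DIO and 13.3 CPM in chow, a log2 ratio of 0.75 (exact 95% counting interval 0.28 to 1.24), beside 19.8% of all genes past that size. The rapamycin nuclei of the same pools gave a ratio of 0.54 for it. Htr1a over all neurons had a ratio of -0.59 on 27 and 44 UMIs (interval -1.34 to 0.13), beside 20.7% of all genes. In GABAergic nuclei (18.9% of all genes past 0.5) no receptor went so far, and Htr7, with 105 CPM in DIO and 80.5 CPM in chow, had the largest ratio at 0.39 (0.24 to 0.54), against 0.17 in rapamycin nuclei.

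Between vehicle nuclei of OB and chow, 3 of 16 values went past 0.5. In GABAergic nuclei, where 24.3% of all genes did, Htr2a was at 21.0 CPM in OB and 13.7 CPM in chow (ratio 0.62, interval -0.11 to 1.29) and Htr1b at 11.5 and 16.4 CPM (-0.51, -1.50 to 0.34). In rapamycin nuclei the Htr2a ratio turned to -0.36 and the Htr1b ratio was -0.03. In glutamatergic nuclei, where 27.1% of all genes did, Htr2a was at 47.0 CPM in OB and 30.5 CPM in chow (0.62, -0.05 to 1.25), which turned to -0.32 in rapamycin nuclei. All 3 intervals include 0. With hashtags called by tag ratio, the glutamatergic vehicle values had intervals above 0 for Htr2a (0.66, 0.16 to 1.14) and for Htr1b (0.81, 0.07 to 1.52). The Htr1b ratio was -0.02 with the main hashtag calls. Htr2c in GABAergic vehicle nuclei was lower in both obese groups, at 476 CPM in DIO, 423 CPM in OB and 537 CPM in chow, with ratios of -0.18 (-0.24 to -0.11) for DIO and -0.35 (-0.49 to -0.20) for OB; both ratios share the chow vehicle sample. In rapamycin nuclei the ratio was 0.0047 (-0.06 to 0.07) for DIO, so no difference was seen there, and -0.12 (-0.22 to -0.03) for OB. Over all neurons (19.8% of all genes past 0.5 in OB), Htr2c was at 460 CPM in DIO, 461 CPM in OB and 469 CPM in chow, a ratio of -0.03 in both groups.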

How the data were processed

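Nuclei were profiled with the 10x Genomics 3′ v3 kit. The deposited matrices hold whole-number counts of UMIs for genes and of hashtags, made by the authors with Cell Ranger 6.0.0 and mm10 per the submitters' processing notes. The file headers name version 7.0.1 for OB, with 31053 genes, and version 6.0.0 for the other two pools, with 27998. Totals per pool were 71127440 (DIO), 39238102 (OB) and 68992028 (chow) counts.

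From these, hashtags were called with HTODemux (Seurat 5.3.0, positive quantile 0.99), tag 1 as rapamycin and tag 2 as vehicle per the deposited key; nuclei with both tags or with no call were left out, and no other doublet caller was run. Nuclei had at least 500 UMIs and 300 genes and under 5% mitochondrial UMIs. Neurons had at least 3 UMIs of Rbfox3, Snap25, Syt1, Celf4 and Stmn2 together and more of these than of any other type's markers. GABAergic nuclei had at least 2 UMIs of Slc32a1, Gad1 and Gad2 and 0 of Slc17a6, Slc17a7 and Slc17a8, and glutamatergic nuclei the converse. Agrp and Npy nuclei needed 1 UMI of each gene, and Pomc nuclei 2 of Pomc with Prdm12, Tbx3 or Cartpt and no Pax7. Tac2, Th and Sst nuclei needed 2 of that gene, and Nr5a1 or Fezf1 nuclei 2 of both together. Lepr, Sim1, Hdc, Hcrt and Pmch nuclei needed 3 of that gene, and Lmx1a or Lmx1b nuclei 3 of both together. Avp or Oxt nuclei needed at least 5 of Avp or at least 5 of Oxt, not of their sum. A class was tested against other neurons with at least 10 nuclei in each of at least 4 hashtag samples. The rapamycin test needed that in all 6.

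Counts were summed per hashtag sample and class and tested with edgeR 4.0.16 (TMM, filterByExpr, quasi-likelihood test, Benjamini-Hochberg over all genes tested, threshold 0.05), with hashtag sample or pool as a block; DESeq2 1.42.0 was an alternative. The block is the design's pairing, since both classes of a hashtag sample, and both treatments of a pool, share a capture. The scripts were tested on simulated data. CPM are counts over all counts of the summed nuclei. Ratios within and between pools have exact 95% intervals, which cover counting error only, as do floors of 3 counts. Genes like each receptor were the 3 with the highest Pearson correlation, of which 1 is not reported here. The receptors, gene lists and classes were chosen with earlier results of these data known.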

Additional observations from a re-analysis of the deposited data

Results flagged for a closer look

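Htr2c went in opposite directions with rapamycin in different pools, in each case with an exact 95% counting interval that did not include 0. Over all neurons its log2 ratio of rapamycin to vehicle was -0.0993 in OB and 0.0547 in chow. In glutamatergic nuclei it was -0.1788 in DIO and 0.3332 in chow. In Lmx1a or Lmx1b nuclei it was 0.3349 in DIO, -0.6236 in OB and 0.1369 in chow, the OB value resting on 44 rapamycin and 14 vehicle nuclei. These differences between pools were not tested, since each has 1 hashtag sample per treatment.

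Of 46 receptor and class pairs with at least 50 UMIs searched, 5 had a hashtag sample far from the others by Dixon's criterion at 95%, which flags about 1 in 20 groups by chance. Htr2c was at 157.3 CPM in Sim1 nuclei of OB vehicle, against 336 to 374 CPM in the other samples. It was at 156.4 CPM in Avp or Oxt nuclei of chow rapamycin and at 1765 CPM in Lmx1a or Lmx1b nuclei of OB vehicle. Htr7 was at 84.5 CPM in Sim1 nuclei of chow rapamycin and at 102.3 CPM in Pmch nuclei of OB rapamycin.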

How the results depend on the processing

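The replicate block decided most of the transmitter calls: without it 1 receptor was called between GABAergic and glutamatergic nuclei in place of 4, and leaving out 1 hashtag sample gave 3 to 4. The 42 calls in marker classes ranged from 33 (DESeq2) to 42 over the other settings and from 35 to 43 when 1 hashtag sample was left out. The 1 rapamycin call, Htr2c in Avp or Oxt nuclei, remained with library totals and fell to 0 calls with no filter on low counts, DESeq2, hashtags by tag ratio, a stricter marker minimum and no replicate block, and to 0 without any 1 pool (lowest 0, highest 0). Without the deepest nuclei there were also 0 calls, but that pair was not tested there. Of values past 0.5 between pools, DIO against chow gave 1 in place of 2 with hashtags by tag ratio, and OB against chow gave 1 in place of 3 in rapamycin nuclei. Of these 5 values, 3 changed sign in rapamycin nuclei: Htr1a over all neurons in DIO (0.022), and Htr2a in GABAergic (-0.36) and glutamatergic nuclei (-0.32) in OB. Among smaller ratios, Htr2c in glutamatergic nuclei of DIO was at -0.37 in rapamycin and 0.15 in vehicle nuclei. The causes of these changes were not tested. Over single receptor and class pairs of the transmitter and marker comparisons, 772 values stayed on their side of the threshold, 38 dropped below it and 4 passed it. Changes of direction were looked for only where a fit was called, and there were none. Library totals in place of TMM shifted the median of all genes by 0.14 in Agrp and Npy, 0.15 in Pomc and 0.12 in Tac2 nuclei, with the same 42 calls. Depth limits Htr1a throughout, Htr1b and Htr2a in small classes, and the OB pool most.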

Other observations

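Classes with too few nuclei for a test gave values only. Foxb1 nuclei, whose marker is a transcription factor of the mammillary region, numbered 58. In the 3 samples with at least 10 of them Htr7 was at 111 CPM in DIO rapamycin, and at 103 and 117 CPM in chow rapamycin and vehicle, above the 64.4 to 77.2 CPM of all neurons. Htr2a was at 90.8, 38.5 and 53.3 CPM in the same samples, above the 18.0 to 22.6 CPM of all neurons. Htr2c was at 60.5, 160 and 117 CPM there, below the 430 to 487 CPM of all neurons. None of these was tested. Other mammillary markers were near absent or mixed in Foxb1 nuclei. Barhl1 had no UMI in any pool, and Cck had 2 UMIs in chow, 0 in DIO and 1 in OB. Nos1 was at 16.0 CPM in chow, 37.6 CPM in DIO and 0 CPM in OB, against 24.4, 28.3 and 23.7 CPM in other neurons.

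The 2478 neurons of the OB pool without a hashtag call had receptor levels close to those with one, at 17.4 CPM of Htr1b, 22.8 CPM of Htr2a, 435 CPM of Htr2c, 80.6 CPM of Htr4 and 66.4 CPM of Htr7.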
